A study of Mus musculus with 3 samples.

Results

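Aminoacyl-tRNA synthetases join each amino acid to its tRNA, and mammalian cells keep one set of them for translation in the cytosol and another, also encoded in the nucleus, for translation inside mitochondria. The genes of both sets were picked from the RIP-seq count table by symbol alone, which found 38 of 49997 genes. Of these, 21 were counted as cytosolic and 17, all with symbols ending in 2, as mitochondrial. Tarsl2 also ends in 2, but it encodes a threonyl-tRNA synthetase-like protein of the cytosolic type and was counted there. Gars and Kars, which each encode both the cytosolic and the mitochondrial form of their enzyme, were counted with the cytosolic set. All 38 genes passed the filter on low counts.

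YTHDF2 is a cytoplasmic reader protein that binds mRNA carrying N6-methyladenosine (m6A) and recruits the CCR4-NOT deadenylase, which leads to decay of the mRNA. m6A is placed mostly within short motifs of which GGACT is a common form, more often near stop codons and in long exons than close to exon junctions. RNA recovered with an antibody to YTHDF2 (IP) is compared with input RNA to find which transcripts the protein holds. Several cytosolic synthetases sit in the multisynthetase complex, while mitochondrial synthetases are imported and charge the tRNAs of the mitochondrial genome.

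All libraries came from E14 mouse embryonic stem cells (ESCs) treated with Dox for 24 h, with 1 library of input and 2 libraries of YTHDF2 IP. In the study's inducible system, Dox switches on a Dux transgene, and a tdTomato reporter under the Mervl promoter marks cells that enter a 2-cell-like state. Input and IP therefore share the line, the transgene and the treatment. The labels do not say whether the IP libraries came from separate cultures, so p-values measure only the spread between these libraries, which may be technical. No IP with a control antibody was analysed here, so RNA held by YTHDF2 and RNA held by the beads or the antibody cannot be told apart.

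Total counts ran from 35259827 to 36986994 per library. ESC markers were abundant in every library, with 9 of 9 genes detected and a summed level of 8429 CPM (counts scaled to the library total) in input against 9040 and 8993 CPM after IP. Of 5 markers of fibroblast feeder cells, 1 was at 0 in every library, and the list summed to 29.1 CPM in input against 16.0 and 17.1 CPM after IP, of which Thy1 alone gave 26.9, 14.1 and 15.1 CPM. The neural list, mostly Tubb3, summed to 73.2 CPM in input against 139 and 134 after IP, and the endoderm and mesoderm lists to between 1.59 and 10.3 CPM. For a level within any of these bulk libraries, fewer cells of a type and less RNA per cell cannot be told apart.

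The cytosolic and mitochondrial sets lay on opposite sides of input. Cytosolic synthetase transcripts were mostly poorer in the YTHDF2 IP than in input, with a median log2 fold change of -0.87, and mitochondrial ones were mostly richer, with a median of 0.31. The median over all 19601 tested genes was 0.01. At an adjusted p under 0.05 and a fold change over 2 (edgeR's quasi-likelihood test), 8 of 21 cytosolic genes were depleted and 0 enriched, against 14.0% of all tested genes depleted and 15.2% enriched. Of 17 mitochondrial genes, 3 were enriched and 0 depleted. Without the fold threshold, 18 cytosolic genes were lower, 2 were higher and 1 did not pass, whereas 9 mitochondrial genes were higher, 5 were lower and 3 did not pass. Across all tested genes, 30.1% were lower and 28.5% higher by that rule. Counting position alone, 19 of 21 cytosolic genes lay below input in both IP libraries, against 45.3% of all tested genes, and 12 of 17 mitochondrial genes lay above it in both, against 44.2%. If Tarsl2 were placed with the mitochondrial genes, that set of 18 would hold 3 enriched and 1 depleted gene, with a median of 0.27. The enriched share of the mitochondrial set, 17.6%, was close to the 15.2% among all genes, while the depleted share of the cytosolic set, 38.1%, was above the 14.0%.

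**Figure D1:**
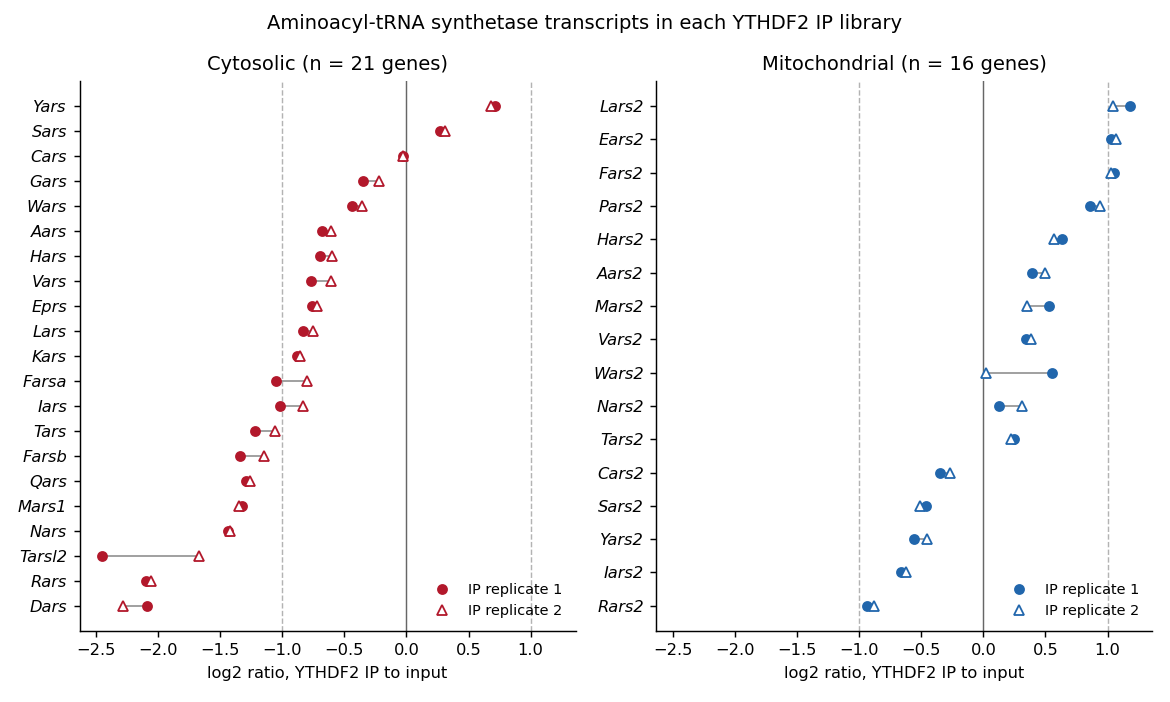
The log2 ratio of each YTHDF2 IP library to input (x axis) for 21 cytosolic (left, red) and 16 mitochondrial (right, blue) synthetase genes, ordered by fitted fold change, with filled circles for IP replicate 1 and open triangles for IP replicate 2. Dashed lines mark a 2-fold difference either way. In the cytosolic panel 19 genes lie left of 0 in both libraries, and in the mitochondrial panel 11 lie right of 0 in both.

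The IP libraries gave nearly the same ratio for most of these genes. All 38 ratios had the same sign in both libraries, where 44.2% of all tested genes lay above input in both and 45.3% below it in both. Both ratios use the same input library, which by itself favours a like sign. Of the 38 genes, 35 differed by less than 0.2 on the log2 scale. The SD of the difference between the IP libraries was 0.182 over the synthetases and 0.772 over all tested genes, many of which have far fewer counts. Tarsl2, at -2.45 and -1.67, and Wars2, at 0.55 and 0.02, were the genes least alike between the libraries. Both were the lowest in counts of their sets, with 265 and 310 counts in input.

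Dars and Rars, which encode the aspartyl- and arginyl-tRNA synthetases of the multisynthetase complex, were the most depleted in the fit reported. In IP replicate 1 alone Tarsl2 was lower, at -2.45 against -2.09 for Dars and -2.10 for Rars. With a GC trend removed, Rars (-1.88) and Tarsl2 (-1.85) lay below Dars (-1.62). Dars (chr1:128363707-128417416, minus strand) had 6906 counts in input and 1656 and 1475 in IP replicates 1 and 2. Its log2 fold change was -2.18 ± 0.0755 (SE of the fit, 1 input and 2 IP libraries), a level 4.53-fold lower. The adjusted p was 1.05e-39 by edgeR. Rars (chr11:35808381-35834528, minus strand) had 6267 counts in input and 1490 and 1559 in IP, a log2 fold change of -2.08 ± 0.0755 (adjusted p = 1.08e-38). For both genes the IP libraries lay close together and far below input. Tarsl2 (chr7:65644898-65692093, plus strand) had 265 counts in input and 49 and 86 in IP, and its log2 fold change of -2.01 ± 0.296 (adjusted p = 9.2e-09) carried the widest error of the 38 genes.

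The other 5 depleted genes fell by between 2.2- and 2.69-fold. Nars, the asparaginyl enzyme, went from 9038 counts in input to 3396 and 3500 in IP (log2 fold change -1.43 ± 0.0647, adjusted p = 9.43e-33). Mars1, the methionyl enzyme (chr10:127296221-127311786, minus strand), went from 5078 to 2076 and 2062 (-1.34 ± 0.0751, adjusted p = 3.73e-27). Qars, the glutaminyl enzyme (chr9:108508005-108515941, plus strand), went from 5737 to 2391 and 2483 (-1.28 ± 0.0721, adjusted p = 5.17e-27). In these 3 genes the IP libraries differed from each other by far less than either did from input. Farsb, the beta subunit of the phenylalanyl enzyme (chr1:78417958-78488897, minus strand), went from 4512 to 1813 and 2103 (-1.24 ± 0.0791, adjusted p = 4.82e-24). Tars, the threonyl enzyme (chr15:11383663-11399658, minus strand), went from 6148 to 2685 and 3052 (-1.14 ± 0.0715, adjusted p = 2.47e-24). With the dispersion set by hand at 0.1, well above the 0.00538 estimated from the IP libraries, Dars, Rars and Tarsl2 were still called, and Nars (adjusted p = 0.0503), Mars1, Qars, Farsb and Tars were not. Qars, Farsb and Tars also fell under 2-fold, to -0.66, -0.80 and -0.70, with a trend with exon density removed.

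The cytosolic synthetases that were lower without reaching 2-fold had log2 fold changes of -0.92 for Farsa, the alpha subunit of the phenylalanyl enzyme, and for Iars, -0.87 for Kars, -0.79 for Lars, -0.74 for Eprs, -0.69 for Vars, -0.65 for Aars and Hars, -0.40 for Wars and -0.29 for Gars. Their adjusted p-values were at most 1.57e-05. The subunits of the cytosolic phenylalanyl enzyme thus moved in the same direction, with Farsa just under the fold threshold and Farsb just over it.

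Among cytosolic genes only Yars and Sars were higher in the IP, although Cars came to 0.07 when libraries were scaled by total count, and Cars and Gars came to 0.40 and 0.14 when a trend with exon density was removed, and Sars came down to 0.06 with a GC trend removed. Yars, the tyrosyl enzyme (chr4:129189734-129219240, plus strand), had 7311 counts in input and 12197 and 12154 in IP (log2 fold change 0.70 ± 0.0597, adjusted p = 1.57e-17). Sars, the seryl enzyme (chr3:108424864-108445259, minus strand), had 5135 in input and 6324 and 6574 in IP (0.29 ± 0.0663, adjusted p = 0.00011). Cars, the cysteinyl enzyme, was nearest 0, with 4277 counts in input, 4282 and 4345 in IP and a log2 fold change of -0.03 ± 0.0709 (adjusted p = 0.761). Its log2 ratio was -0.03 in each IP library.

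Of the 8 synthetases in the multisynthetase complex (Dars, Eprs, Iars, Kars, Lars, Mars1, Qars and Rars), all 8 were lower in the IP and 4 were depleted, with a median log2 fold change of -1.10, against 30.1% lower and 14.0% depleted among all tested genes. The 13 cytosolic genes outside the complex held 4 depleted genes, 10 lower and 2 higher ones, with a median of -0.65. The complex also has scaffold proteins with no synthetase activity, and their transcripts were lower too. Eef1e1 was depleted, with 5251 counts in input and 2558 and 2499 in IP (log2 fold change -1.09, adjusted p = 4.85e-23), while Aimp1 was at -0.61 and Aimp2 at -0.27 (adjusted p = 0.0036). Whether genes of the complex differ from other cytosolic synthetases was not tested.

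Synthetases fall into catalytic classes I and II, which have unrelated folds, and cytosolic genes were mostly lower in both, where 30.1% of all tested genes were lower and 28.5% higher. Class I medians were -0.79 over 9 cytosolic genes, of which 7 were lower, and 0.31 over 9 mitochondrial genes, of which 4 were higher and 4 lower. The latter median is the value of Wars2, which did not pass the test, and the IP libraries taken singly gave medians of 0.34 and 0.02. Class II medians were -0.92 over 11 cytosolic genes, of which 10 were lower, and 0.34 over 8 mitochondrial genes, of which 5 were higher and 1 was lower. Eprs, which joins an enzyme of each class in 1 protein, was left out of this count.

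Among mitochondrial synthetases, Lars2, Ears2 and Fars2, the leucyl, glutamyl and phenylalanyl enzymes, were enriched. Lars2 (chr9:123366927-123462675, plus strand) had 2222 counts in input and 5151 and 4718 in IP, a log2 fold change of 1.11 ± 0.0799, or 2.16-fold (adjusted p = 3.26e-21). Ears2 (chr7:122034162-122067094, minus strand) had 1005 counts in input and 2095 and 2191 in IP (1.05 ± 0.103, adjusted p = 6.2e-15). Fars2 (chr13:36117428-36537595, plus strand) had 1166 counts in input and 2468 and 2461 in IP (1.04 ± 0.0976, adjusted p = 8.98e-16). Each lay above 2-fold in both IP libraries but only just, and none of the 3 was called with the dispersion set at 0.1, where their adjusted p-values were 0.186, 0.215 and 0.222. Lars2 also fell under 2-fold, to 0.98, with a GC trend removed, and Ears2 and Fars2, at 0.78 and 0.76, with a trend with exon density removed. Pars2, the prolyl enzyme, was just below the threshold at 1.86-fold, with 623 counts in input and 1151 and 1236 in IP (0.90 ± 0.128, adjusted p = 3.85e-09).

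Smaller rises that passed the test were 0.60 for Hars2, 0.45 for Aars2, 0.44 for Mars2, 0.36 for Vars2 (-0.18 with a GC trend removed) and 0.23 for Tars2, which missed the threshold with DESeq2 (adjusted p = 0.0583). Wars2, at 0.31, and Nars2, at 0.23, were among the 3 that did not pass.

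The 5 mitochondrial genes below input were Rars2, Iars2, Yars2, Sars2 and Cars2. Rars2, the arginyl enzyme, had 1650 counts in input and 879 and 927 in IP (log2 fold change -0.91 ± 0.108, adjusted p = 8.57e-12). Iars2, the isoleucyl enzyme, had 2105 in input and 1361 and 1421 in IP (-0.64 ± 0.0948, adjusted p = 1.19e-08). Yars2 was at -0.50, Sars2 at -0.49 and Cars2 at -0.31 (adjusted p = 0.0163 for Cars2). The call of Cars2 was lost with DESeq2 (adjusted p = 0.157), with total count scaling (0.108) and without the filter (0.0718). In all 5 genes both IP libraries lay below input, although Cars2 and Sars2 came to 0.14 and 0.04 with the exon density trend removed. With the GC trend removed Sars2 instead came to -1.09 and passed 2-fold.

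Since most amino acids have one enzyme in each compartment, the sets can be set against each other amino acid by amino acid. Values are given for 17 pairs over 16 amino acids, with Farsa and Farsb each paired with Fars2 and Eprs with both Ears2 and Pars2. The mitochondrial transcript had the higher log2 fold change in both IP libraries in 14 pairs and the lower in 3, and the median difference, mitochondrial minus cytosolic, was 1.26. In 12 pairs it was over 1. The largest of these differences was 2.28, for Fars2 and Farsb, followed by 1.96 for Fars2 and Farsa and 1.90 for Lars2 and Lars. The pairs in the other direction were Cars2 and Cars at -0.28, Sars2 and Sars at -0.77 and Yars2 and Yars at -1.20. The tyrosyl and seryl pairs hold the cytosolic genes that were higher in the IP. The arginyl and isoleucyl enzymes were lower than input in both compartments, and the cysteinyl pair also lay below it, with Cars at -0.03 and not past the test.

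**Figure D2:**
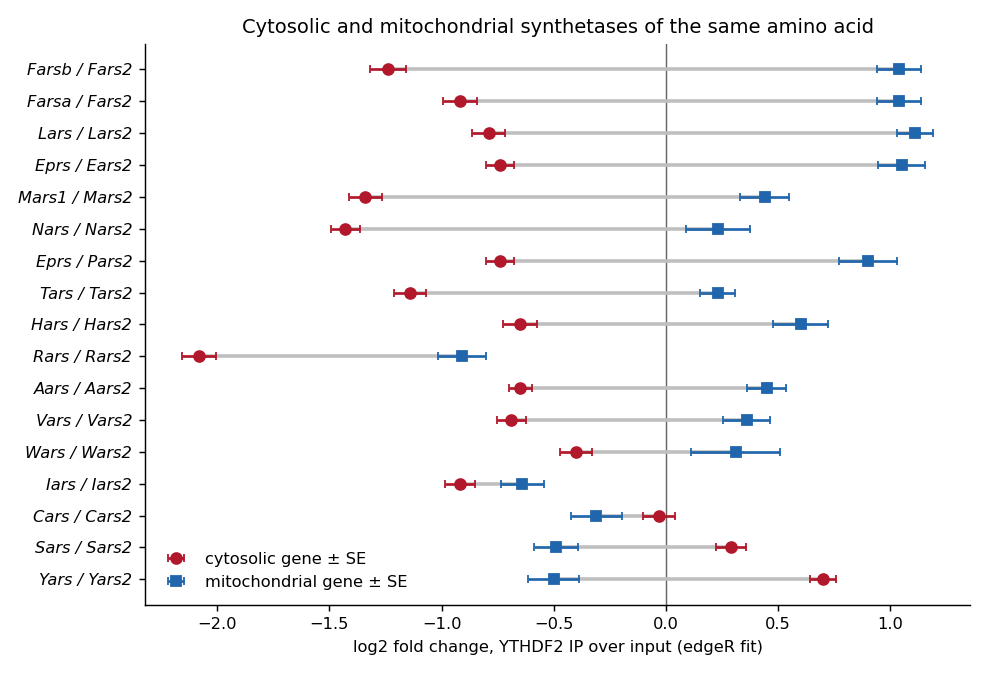
The fitted log2 fold change of IP over input (x axis, ± SE) for each cytosolic gene (red circles) and the mitochondrial gene of the same amino acid (blue squares), joined by a grey line. In 14 of 17 pairs the blue square lies to the right of the red circle, with the tyrosyl, seryl and cysteinyl pairs at the bottom reversed.

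As levels, the cytosolic set was the more abundant in every library, but by less in the IP. In RPKM, here counts per kilobase of merged exons scaled to TMM-adjusted library size in CPM, the median over 21 cytosolic genes was 59.4 in input but 28.2 and 31.6 after IP, and the median over 17 mitochondrial genes was 8.33 in input and 9.72 and 9.69 in IP. In input, Kars at 297 RPKM, Aars at 145 and Gars at 140 were the highest, and Wars2 at 1.27 and Tarsl2 at 2.35 the lowest. Over protein-coding genes tested, the median RPKM was between 4.79 and 4.83 in the 3 libraries.

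Summed over the set, cytosolic synthetases took 0.446% of all input counts (95% Wilson interval 0.4438% to 0.4481%), and 0.290% and 0.302% of the counts of IP replicates 1 and 2. Mitochondrial synthetases took 0.0644% of input (0.06359% to 0.06523%) and 0.0848% and 0.0838% of IP. The ratio of cytosolic to mitochondrial counts was 6.92 in input but 3.42 and 3.61 after IP. These intervals cover counting error only, and since mates of a pair were counted singly they are too narrow even for that. With 3 libraries an exact permutation test of such a sum cannot go below a one-sided p of 0.333.

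**Figure D3:**
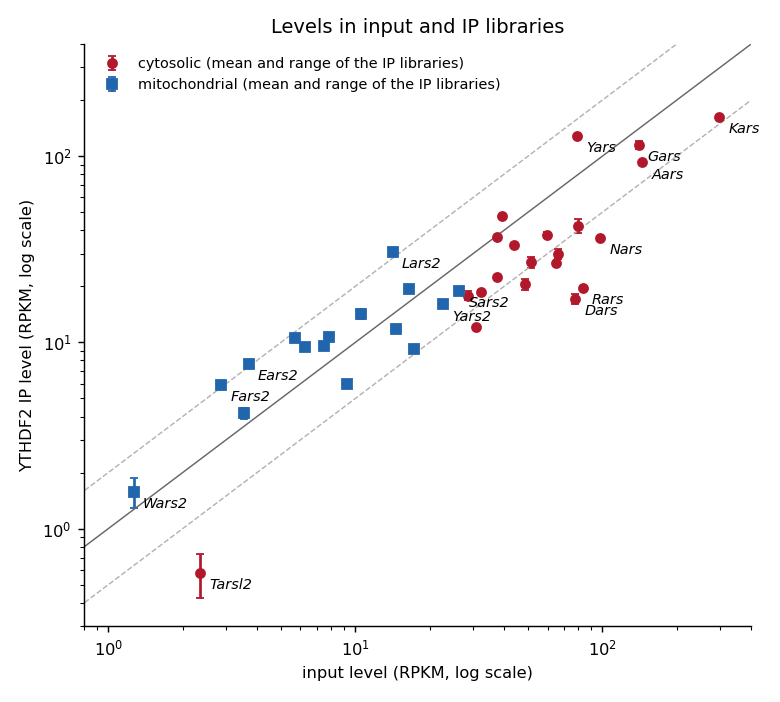
The level of each synthetase transcript in input (x axis, RPKM, log scale) and in the YTHDF2 IP (y axis, RPKM, log scale, mean and range of 2 libraries). The solid line marks equal levels and dashed lines a 2-fold difference. Red circles (cytosolic) lie mostly below the solid line and to the right, and blue squares (mitochondrial) lie to the left and mostly on or above it.

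The transcripts of the sets also differ in build, which the choice of genes did not use. In the RefSeq transcript of each gene, cytosolic synthetases had a median of 7.11 exons per kb and a 3′ UTR of 348 bases, and mitochondrial ones had 4.69 exons per kb and 724 bases. The medians over 15015 tested genes with a curated RefSeq transcript were 3.38 exons per kb and 938 bases. The longest exon had a median of 426 bases in the cytosolic set, 1019 in the mitochondrial set and 1357 over those genes. GC content was alike, at 50.4%, 51.3% and 50.8%.

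Within these genes, log2 fold change was lower where exons were denser. Across the 38 genes Pearson's r was -0.61 and Spearman's rho -0.62, with r at -0.41 over 21 cytosolic and -0.63 over 17 mitochondrial genes, and -0.26 over the 15015 genes. Other features also went with the ratio. GC content had r = 0.56 over the cytosolic, 0.01 over the mitochondrial and 0.34 over the 15015 genes, and depleted cytosolic genes had a median GC of 46.8% against 52.8% for the other cytosolic genes, while their exon densities were close, at 7.19 and 7.10 per kb. Input level in RPKM had r = -0.51 across the 38 genes, 0.21 over the cytosolic, -0.54 over the mitochondrial and -0.24 over 14904 tested genes. Input is also the denominator of the ratio, so level and ratio are not independent. For 3′ UTR length, r was 0.48 across the 38 genes, 0.26 over the cytosolic, 0.54 over the mitochondrial and -0.01 over all 15015. Genes are not independent replicates and share the same 3 libraries, so these values are descriptions. Mars2, a single-exon transcript, Pars2, with 2 exons, and Ears2, whose 3′ UTR of 4913 bases was the longest of the set, were all higher in the IP. Rars2, with 10.7 exons per kb, was the lowest mitochondrial gene and had the densest exons of the 38. Sars, with a 3′ UTR of 1966 bases and the fewest exons per kb of the cytosolic set, 3.24, was one of the cytosolic genes above input. The 5 mitochondrial genes below input had 3′ UTRs of 97 to 407 bases with a median of 149, and the 12 above input in both libraries had a median of 1027.5. Fars2, enriched with a 3′ UTR of 156 bases, and Yars2, below input with 3.15 exons per kb, were among those that went against these orders. The merged exons counted for Fars2 span 11479 bases, against 1896 in this transcript. Tars2 (3′ UTR of 197 bases, 7.18 exons per kb), Aars2 (393 bases, 6.57) and Vars2 (6.55 exons per kb) were higher in the IP too.

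The sets were also compared within bins of exon density, most of which hold few synthetases. Among transcripts with 6 to 8 exons per kb, the median log2 fold change was -0.39 over 1890 tested genes, -0.92 over 13 cytosolic synthetases and 0.30 over 4 mitochondrial ones. Of the 1890 genes, 17.5% were depleted, and of the 13 cytosolic synthetases 38.5%. From 4 to 6 exons per kb the medians were -0.16 over all tested genes, -0.65 over 5 cytosolic and 0.60 over 3 mitochondrial genes. From 2 to 4 exons per kb the only cytosolic gene, Sars, was at 0.29 and 3 mitochondrial genes had a median of 0.23, against 0.04 over all. At 8 or more exons per kb the mitochondrial median of -0.49 over 3 genes was close to the -0.46 over all, and that of 2 cytosolic genes was -1.03. Below 1 exon per kb, 2 mitochondrial genes had a median of 0.67 with 0.0% enriched, under the 0.78 and 33.2% over all. From 1 to 2 exons per kb, 2 mitochondrial genes had a median of 0.68 with 50.0% enriched, against 0.43 and 25.6% over all. Neither of these bins held a cytosolic gene. The trend of fold change with exon density over all tested genes was also taken off, with density counted over merged exons. The bins instead use the RefSeq transcript, and the measures differ for Fars2 (1.05 merged, 3.69 by transcript) and Mars1 (4.7 and 7.42), among others. With that trend off, Dars, Rars, Tarsl2, Nars and Mars1 still lay over 2-fold below input, and Farsb, Qars and Tars did not. Lars2 alone stayed over 2-fold above it. The cytosolic median then came to -0.50 and the mitochondrial to 0.25. What part exon density, GC content or level plays in the ratios was not tested.

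**Figure D4:**
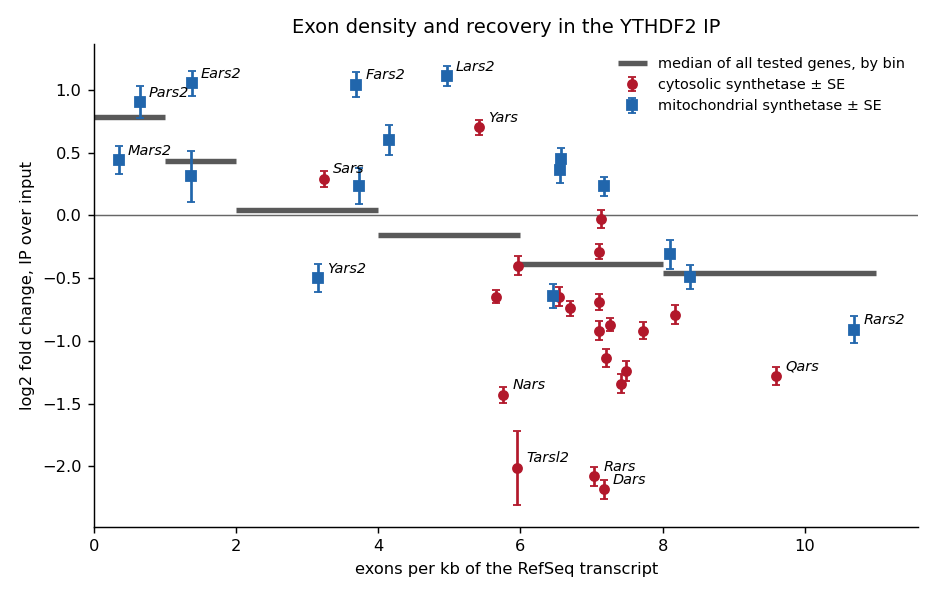
The fitted log2 fold change of IP over input (y axis, ± SE) against exons per kb of the RefSeq transcript (x axis) for cytosolic (red circles) and mitochondrial (blue squares) synthetases. Grey bars are the medians of all tested genes in 6 bins of exon density, which go from 0.78 below 1 exon per kb to -0.46 at 8 or more (this last bar is drawn to 11). Dars, Rars and Tarsl2 lie far below the bar of their bin, and Lars2 far above.

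GGACT, searched on the transcript strand only, is a common form of the m6A motif and was about as dense in both sets as elsewhere, at a median of 1.09 per kb in cytosolic, 1.12 per kb in mitochondrial and 1.07 per kb in all 15015 transcripts. In the 400 bases centred on the stop codon, it was present in 5 of 15 cytosolic transcripts and 7 of 12 mitochondrial ones with 200 bases on each side, and in 40.9% of all 13007 such transcripts. The numbers of synthetases are too small to order these shares. To show what surrounds them, 1 copy is given for each of the 3 enriched genes, for 3 of the 8 depleted genes and for Yars, in each case the copy nearest the stop codon among those whose 25-base window lies within 1 exon. The most depleted genes are not all among them, since Rars held no copy, the only copy of Dars has a window that crosses an exon junction and Nars is not shown. The windows are RefSeq GRCm38.p6 (mm10) sequence written 5′ to 3′ along the transcript, with GGACT in capitals.
Lars2 (enriched, chr9:123461634-123461658, plus strand, coding sequence): ctctcccccaGGACTgccctcatca
Ears2 (enriched, chr7:122048432-122048456, minus strand, coding sequence): gtatatggctGGACTcagcatgaag
Fars2 (enriched, chr13:36205018-36205042, plus strand, coding sequence): gctgcatgcgGGACTtaatgccttc
Tarsl2 (depleted, chr7:65689999-65690023, plus strand, coding sequence): tggccgatgtGGACTtagatgacag
Qars (depleted, chr9:108515129-108515153, plus strand, coding sequence): gagcattagtGGACTgctctgtggc
Mars1 (depleted, chr10:127300549-127300573, minus strand, coding sequence): agcgtctggaGGACTggttggggaa
Yars (higher by less than 2-fold, chr4:129218625-129218649, plus strand, 3′ UTR): acaaggtgcaGGACTtggaaaggga
In Lars2, the A of this copy lies 32 bases before the last base of the stop codon, in Yars 96 bases after it, and in Qars 142, Tarsl2 220, Fars2 855, Ears2 956 and Mars1 1339 bases before it. Of the enriched genes, Lars2 held 11 copies, and Ears2 and Fars2 held 3 each, fewer than the 4 each of the depleted Qars and Tarsl2. Rars held none, and Pars2, which was 1.86-fold higher in the IP, also held none. These counts are not scaled to transcript length. All 3 enriched genes and 7 of the 8 depleted genes held at least 1 copy, and a match of these letters does not show a methylated site.

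A few genes need care because counting ignored strand and dropped any read that touched exons of several genes. Mars1 overlaps Ddit3 on the opposite strand over 71 bases of exon, and Ddit3 itself was enriched at a log2 fold change of 1.72. Farsb overlaps Sgpp2 over 265 bases, and Iars2 overlaps Rab3gap2 over 115, both on opposite strands, so reads in these stretches were lost and the values are uncertain by that much. Hars and Hars2 lie head to head and overlap by 4 bases. Vars, Vars2, Yars and Farsb also appear on alternate contigs in the table, and reads that fit both places may have been lost. Of the 38 genes, Iars alone had a near-identical copy (at least 95% identity over 500 bases or more), the pseudogene Gm4849 with 7 counts in input and 4 and 5 in IP.

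Other genes around the charged tRNA did not move as one. The elongation factors of the cytosolic ribosome, Eef2 included, had a median log2 fold change of -0.51 over 6 genes, of which 1 was depleted (14.0% of all tested genes), 4 were lower (30.1%) and 1 was higher (28.5%). Eef1a1, which delivers charged tRNA to the ribosome, was depleted, with 414570 counts in input and 191163 and 194233 in IP (-1.15, adjusted p = 9.09e-44), and Eef1b2, Eef1d and Eef1g were lower by less than 2-fold. Eef2, the translocase, was higher at 0.56 (adjusted p = 1.62e-21). Of the 4 mitochondrial elongation factors none was called at 2-fold, against 15.2% of all tested genes enriched and 14.0% depleted. Tsfm and Gfm2 were higher at 0.34 and 0.32 and Gfm1 was lower at -0.70, where 28.5% and 30.1% of all genes were higher and lower, and the median was 0.19.

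Of 9 genes that make up for missing mitochondrial synthetases or mature mitochondrial tRNA, 1 was enriched (11.1%, against 15.2% of all tested genes) and 0 were depleted (14.0% of all). Without the fold threshold 2 were higher (28.5% of all tested genes) and 2 lower (30.1%), and the median was -0.18. Gtpbp3, which modifies the wobble base of mitochondrial tRNAs, had 1127 counts in input and 2568 and 2508 in IP (1.13, adjusted p = 2.36e-17). Qrsl1, Gatb and Gatc, whose products together make glutaminyl-tRNA in mitochondria where no separate synthetase exists, lay between -0.28 and -0.12 and did not pass the test. Mtfmt, which formylates the mitochondrial initiator tRNA, was higher at 0.28 (adjusted p = 0.0481). Trnt1, which adds the CCA end to tRNAs, was lower at -0.99, just short of 2-fold (adjusted p = 2.19e-11), and Elac2, which trims tRNA 3′ ends, was lower at -0.75 (adjusted p = 7.87e-11).

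Of 7 genes that clear or edit mischarged or stalled aminoacyl- and peptidyl-tRNA, 3 were enriched (42.9%, against 15.2% of all tested genes) and 0 depleted (14.0% of all), with a median of 0.77 in a short list. Ptrh2, a peptidyl-tRNA hydrolase, had 1485 counts in input and 4486 and 4471 in IP (1.55, adjusted p = 8.18e-28). Prorsd1, related to the editing domain of prolyl-tRNA synthetases, had 475 counts in input and 1261 and 1091 in IP (1.27, adjusted p = 6.96e-13). In both genes each IP library lay above input.

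Many cytosolic synthetase genes are known targets of ATF4, the transcription factor of the amino acid response. A list of 23 genes of that response with synthetases left out held 3 enriched and 3 depleted genes (13.0% each, near the 15.2% and 14.0% of all tested genes), with 10 higher and 11 lower without the fold threshold (28.5% and 30.1% of all tested genes) and a median of -0.17. The stress response genes Chac1 (2.14), Trib3 (2.10) and Ddit3 (1.72) were enriched. Atf4 itself was at 0.97 (adjusted p = 7.24e-25), just short of 2-fold. Asns (-1.05), which makes asparagine, Slc7a11 (-1.04), a cystine transporter, and Cth (-1.25), which makes cysteine, were depleted. Slc7a11 had only 175 counts in input and 91 and 84 in IP. Its log2 ratios were -0.97 in IP replicate 1, short of 2-fold, and -1.10 in IP replicate 2.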

How the data were processed

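RIP-seq libraries of Dox-treated E14 ESCs (1 input, 2 YTHDF2 IP) were grouped by their titles. Per the methods of the study, the IP was made from cleared lysate, whereas the labels describe IP of Trizol-extracted total RNA. The study calls the input total RNA, and whether it came from whole cells or cleared lysate is not given in the sources used here. The authors filtered reads with fastp 0.19.4 and aligned them to mm10 with HISAT2 2.2.1. The deposited values are raw counts per gene from featureCounts 2.0.3 (per the file headers, exons of mm10 RefSeq genes, paired-end mode without counting pairs), so mates were counted singly and sampling noise exceeds what the counts imply. The submitters' notes also name DESeq2 1.40.2.

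Counts were filtered with filterByExpr (19601 genes kept), scaled by TMM (factors 0.957 to 1.02) and tested with edgeR 4.0.16 (glmQLFit, glmQLFTest, robust) in R 4.3.3, with Benjamini-Hochberg adjustment over all tested genes. The only residual degree of freedom comes from the IP libraries, with a coefficient of variation of 7.33%, and the input is taken to vary like them. Each SE, also in the figures, is the absolute log2 fold change divided by the square root of the F statistic. It is a value of the fitted model, not the scatter of the IP libraries for that gene. Single-library log2 ratios used TMM-scaled CPM after adding 0.5 counts. DESeq2 1.42.0 and 8 other settings chosen at the start, and 2 chosen after seeing the data (an exon density trend over merged exons and the earlier quasi-likelihood method of edgeR), were run, and the code was tested on simulated data. Every synthetase may be named, with full values for those called, the 2 highest, the 2 lowest and the one nearest 0 in each set, and pathway genes that were called. Among these, 2 genes are counted in their sets but are not reported singly here, in the text, pairs or figures. Other genes named were chosen after their values were seen. The genes and lists were chosen with earlier results of these data known. Gene positions and transcripts are those of RefSeq GRCm38.p6, 1-based, and near copies were sought with BLAST 2.17.0.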

Additional observations from a re-analysis of the deposited data

How the results depend on the processing

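DESeq2, halved counts, a length trend and the earlier quasi-likelihood method left the direction of all 38 genes and their side of the 2-fold threshold as they were, and so did leaving out the filter. No paired analysis was possible because only the IP titles are numbered, and the input title has no number to match. With the dispersion fixed at 0.1, 3 cytosolic genes were depleted and 0 mitochondrial genes enriched, and 3 of 38 genes passed an adjusted p of 0.05 at any fold, against 34 in the fit reported and 32 with DESeq2. With the exon density trend removed, these counts were 5 and 1, the medians were -0.50 (cytosolic) and 0.25 (mitochondrial), and 5 genes changed sign, among them Cars (0.40), Gars (0.14), Cars2 (0.14) and Sars2 (0.04). With a GC trend removed the medians were -0.95 and 0.44, 1 mitochondrial gene was depleted (Sars2, -1.09), Vars2 turned to -0.18, Farsa and Kars passed 2-fold and Lars2, at 0.98, no longer did. Scaling by total count moved the median of all genes by 0.10, the set medians to -0.77 and 0.41 and Cars to 0.07. The cytosolic median was -0.96 with a length trend removed, and the mitochondrial was 0.33 without the filter. Leaving out 1 IP library gave medians of -0.88 to -0.80 (cytosolic) and 0.31 to 0.34 (mitochondrial). By fold alone, 8 cytosolic genes lay over 2-fold lower without replicate 1 and 10 without replicate 2, where Farsa and Iars passed it. The trend settings keep the p-values of the fit reported, and the cause of each shift was not tested. Tarsl2 and Wars2, with the fewest counts, had the widest errors.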
